A study of Mus musculus with 5 samples.

Results

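The leukemia inhibitory factor family of cytokine genes was followed through the luminal layer of the mouse uterus as 10 genes, namely the ligand Lif, the receptor genes Lifr, Il6st, Il6ra, Il11ra1 and Osmr, the kinase genes Jak1 and Jak2, the transcription factor gene Stat3 and the feedback inhibitor gene Socs3. They were chosen by name among the 23420 genes of the count table, and each was found once. All mice were wild-type C57BL/6N females with no transgene or treatment named, dated from the vaginal plug as day 1 of pregnancy. Their age was not given in the sources used here. The luminal layer was cut out by laser microdissection in the morning of day 3 (D3 morning), when embryos were looked for in the oviduct, in the morning and evening of day 4 (D4 morning, D4 evening), when blastocysts were looked for in 1 uterine horn, and in the morning of day 5, after a blue dye had marked the implantation sites. On day 5, 1 library came from the layer distant from the attached embryo, labelled M pole (mesometrial, D5 away). Another came from the layer that surrounded it, labelled AM pole (anti-mesometrial, D5 around). Distance from the embryo and pole of the uterus therefore cannot be told apart in any difference between the day 5 sites. The study's methods describe pooling RNA of independent samples for its microdissected Lif-floxed and mutant groups, and whether this also holds for these 5 wild-type libraries was not stated. With 1 library per condition no difference has a replicate check, and no test between conditions was possible. Brackets give exact 95% intervals for counting error only.

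Cytokines of this family signal through gp130, the receptor chain that Il6st encodes. Lif binds a pair of gp130 and Lifr, oncostatin M in the mouse binds gp130 and Osmr, and interleukins 6 and 11 first bind Il6ra or Il11ra1, which carry the ligand to gp130. Jak kinases bound to the receptor tails phosphorylate Stat3, which enters the nucleus and turns on target genes that include Socs3, whose product blocks the kinases in return. In the mouse uterus, Lif is made in the glands before attachment, which requires it, and in the stroma near the embryo afterwards, and the luminal epithelium is a known target. Counts measure transcripts, and neither protein nor phosphorylation was measured here.

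Levels of a gene are given as CPM (counts per 1000000 counts, scaled by the TMM method), and levels are compared between genes as RPKM (CPM divided by gene length in kilobases). All 10 genes were among the 12918 genes whose CPM averaged 1 or more. Lif passed only through D5 around, with 17.9 CPM there against 2.04, 0.952, 0 and 0.107 in D3 morning, D4 morning, D4 evening and D5 away. Il6ra passed through D5 away and D5 around, with 5.91 and 6.89 CPM against 0.509 to 1.40 before. A gene is called different between a pair of libraries where its log2 CPM, with a prior count of 2, differed by more than 2-fold and at least 1 of the libraries had more than 3 counts. Folds are ratios of CPM without a prior. Total counts ranged from 15334674 to 19529491 per library, and the floor of 3 counts corresponds to between 0.160 and 0.190 CPM.

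The identity of the layer was checked against marker genes. The 8 epithelial markers, among them the keratin genes Krt8, Krt18 and Krt19 and the adhesion genes Epcam and Cdh1, were all above the floor in each library and summed to between 2902 CPM, in D5 away, and 5859 CPM, in D5 around, with 3786 to 4122 CPM in the 3 earlier libraries. Transcripts of other cell types were also present. The 10 stromal markers, among them Vim, Col3a1 and Dcn, were all above the floor in each library and summed to between 416 CPM, in D5 around, and 632 CPM, in D4 evening. Of the 6 leukocyte markers 5 are in the table, and these summed to 91.1 CPM in D5 around and to between 242 and 349 CPM elsewhere. Ptprc, Lyz2 and C1qa were lowest in D5 around, but Cd68 was highest there, with 670 counts against 158 to 308 elsewhere. Of the 7 gland markers 5 are in the table, with sums from 0.190 CPM, in D4 evening, to 8.18 CPM, in D5 around. Foxa2, which specifies uterine glands, had 32 counts in D3 morning, 51 in D4 morning, 0 in D4 evening, 2 in D5 away and 21 in D5 around. Ttr was at 0 throughout. Prss28 and Prss29 were at 0 in the 3 earlier libraries. They had 21 and 35 counts in D5 away and 44 and 74 in D5 around, while Wfdc3 was at 0 in both. D5 around stood apart in other lists. Its 8 trophectoderm markers summed to 153 CPM against 6.39 to 34.1 CPM in the other libraries, with Cdx2 at 22 counts there and at 0 in the 4 others. Its 5 smooth muscle markers summed to 397 CPM against at most 31.4 CPM elsewhere, through 6090 counts of Des, and its 5 endothelial markers to 96.8 CPM against at most 44.4 CPM, through 72.4 CPM of Cdh5, while Kdr and Emcn were at their lowest there. Among the trophectoderm markers, Ascl2 was higher in D5 away (323 counts) than in D5 around (238), and the others were highest in D5 around. Elf5 and Eomes already had 148 and 62 counts in D4 morning. Hand2, a stromal transcription factor gene, had 2282 counts in D5 around and between 70 and 389 elsewhere. Col1a1, Pdgfra and Pdgfrb were also highest in D5 around, but Dcn, Lum, Col1a2 and Col3a1 were lowest there, as was the stromal sum. In such bulk material, fewer cells of a type and less RNA per cell cannot be told apart.

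**Figure D1:**
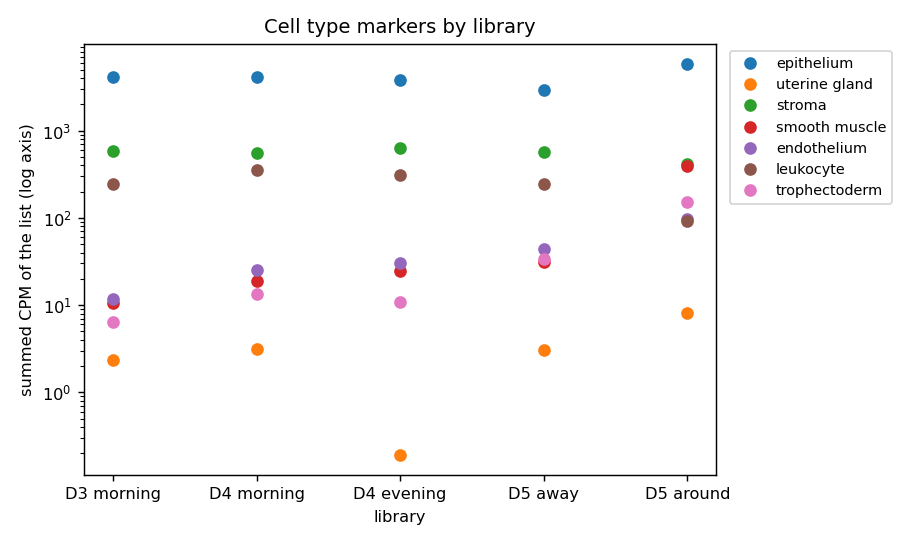
Summed CPM of each marker list (log axis) by library, 1 point per list and library. Epithelial markers are the highest in each library, from 2902 to 5859 CPM. The trophectoderm, smooth muscle, endothelial and gland sums are highest in D5 around (153, 397, 96.8 and 8.18 CPM).

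Lif had few counts in the luminal layer until the embryo had attached, and it was then found around the embryo and hardly at a distance from it. Lif (chromosome 11 of GRCm38/mm10, 4257568 to 4272514, a protein-coding gene) had 36 in D3 morning, 17 in D4 morning, 0 in D4 evening, 2 in D5 away and 304 in D5 around, all in counts. D5 around was thus the only library of the 5 with more than 36 counts. At 17.9 CPM [15.9, 20.03] it was at least 94.0-fold above the floor of D4 evening and 168-fold [46.1, 1393] above D5 away. D4 evening was at least 4.998-fold lower than D4 morning, against the floor of 3 counts. D4 morning was 2.14-fold [1.17, 4.06] below D3 morning, just past the 2-fold limit, although the intervals of both levels overlapped. In D5 around, where Lif was highest, the summed trophectoderm, smooth muscle, endothelial and gland markers were also highest, with the values given above. The summed stromal markers were lowest there, although Hand2, Col1a1, Pdgfra and Pdgfrb were highest. The gland gene Foxa2 was highest in D4 morning, at 51 counts against 21 in D5 around, and the trophectoderm gene Ascl2 in D5 away. The part of these cell types in the Lif counts was not tested.

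**Figure D2:**
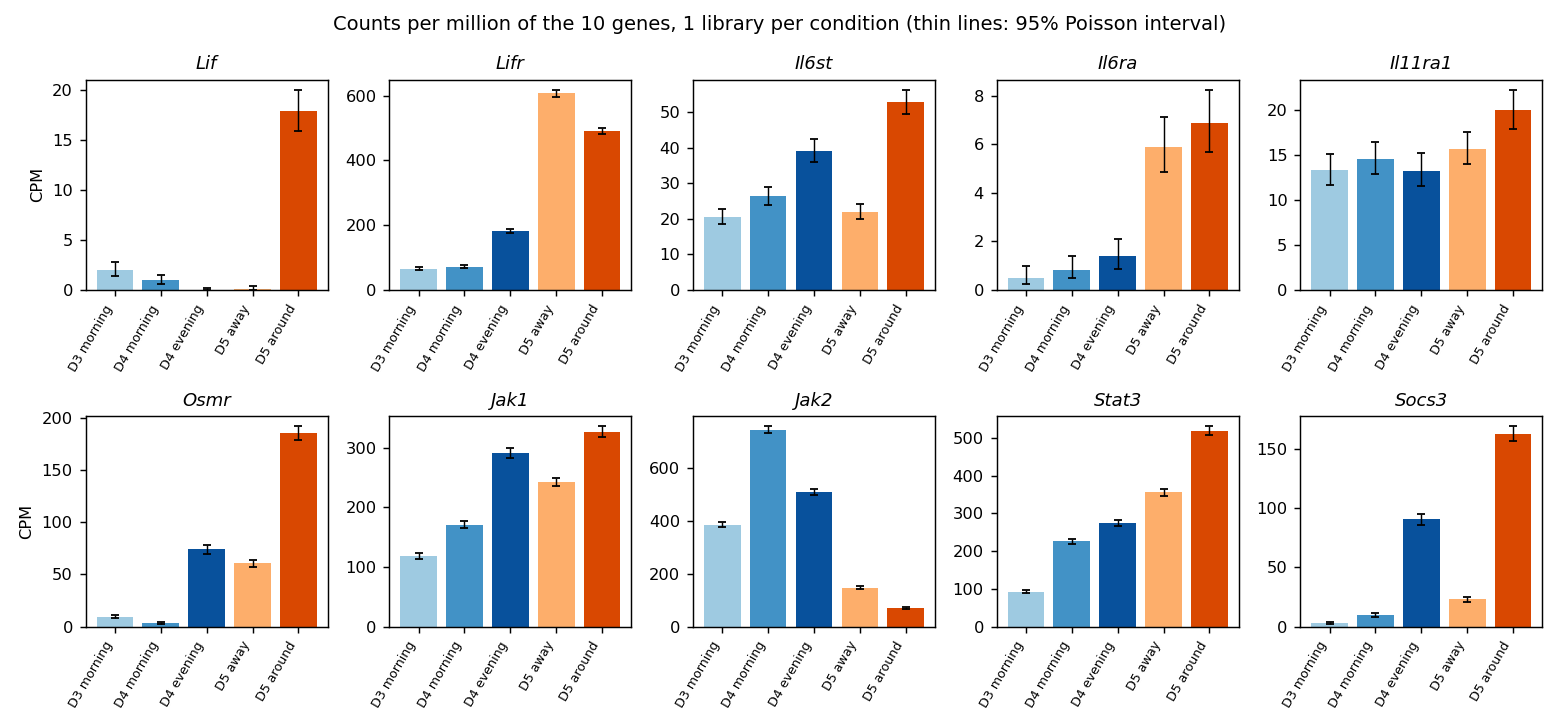
CPM of each of the 10 genes (vertical axes from 0, a scale of its own per gene) in the 5 libraries, with thin lines for the exact 95% Poisson interval. Lif, Il6st, Il6ra, Il11ra1, Osmr, Jak1, Stat3 and Socs3 are highest in D5 around, Lifr is highest in D5 away and Jak2 in D4 morning.

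The receptor gene Lifr was higher before attachment, on the evening of day 4, and higher still at both sites on day 5. Lifr (chromosome 15, 7129572 to 7197489, protein-coding) had a CPM of 65.4 in D3 morning, 71.3 in D4 morning, 182 in D4 evening, 607 in D5 away and 491 in D5 around. Both early libraries lay close together, with overlapping counting intervals, and each later library was above them. D4 evening was 2.56-fold [2.39, 2.73] above D4 morning. D5 away was 3.33-fold [3.20, 3.47] above D4 evening, and D5 around 2.69-fold [2.58, 2.81]. Unlike its ligand, Lifr was not higher next to the embryo, where it was 1.24-fold [1.20, 1.27] below D5 away, a log2 difference of -0.31 that became -0.65 with library totals as the scale.

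Il6st, the signal-transducing chain that the whole family shares, differed less. Il6st (chromosome 13, 112464070 to 112506860, protein-coding) had a CPM of 20.5 in D3 morning, 26.4 in D4 morning, 39.2 in D4 evening, 21.9 in D5 away and 52.8 in D5 around. D5 away was 1.79-fold [1.58, 2.03] below D4 evening, with an interval that overlapped those of D3 morning and D4 morning. D5 around was 1.35-fold [1.22, 1.496] above D4 evening and 2.41-fold [2.14, 2.72] above D5 away, and this last difference was the only 1 of the 5 past the limit. The summed epithelial markers were also higher in D5 around (5859 CPM) than in D5 away (2902 CPM), and their part in the Il6st difference was not tested. With library totals it no longer passed, at a log2 difference of 0.93. Per length, the RPKM of Lifr exceeded that of Il6st in each library, by 1.68-fold [1.49, 1.89] in D3 morning, 1.43-fold [1.28, 1.59] in D4 morning and 2.45-fold [2.25, 2.68] in D4 evening. On day 5 this excess was 14.6-fold [13.2, 16.2] in D5 away and 4.90-fold [4.57, 5.26] in D5 around.

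Osmr, the chain that pairs with gp130 for oncostatin M, showed the largest difference of the 5 receptor genes on day 4. Osmr (chromosome 15, 6813577 to 6874313, protein-coding) had 164 in D3 morning, 66 in D4 morning, 1166 in D4 evening, 1133 in D5 away and 3140 in D5 around, all in counts. It was 2.51-fold [1.88, 3.40] lower in D4 morning than in D3 morning, and 20.03-fold [15.6, 26.1] higher by the same evening. D5 away stayed near that level, 1.23-fold [1.13, 1.33] below it. D5 around was 2.50-fold [2.33, 2.67] above D4 evening and 3.06-fold [2.86, 3.28] above D5 away. In RPKM, Lifr exceeded Osmr by 9.03-fold [7.04, 11.7] in D4 morning and by 1.15-fold [1.08, 1.23] in D4 evening.

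The binding chains for interleukins 6 and 11 differed from each other in their course. Il6ra (chromosome 3, 89869324 to 89913162, protein-coding) had 9 in D3 morning, 15 in D4 morning, 22 in D4 evening, 111 in D5 away and 117 in D5 around, all in counts. The intervals of the 3 earlier libraries overlapped from neighbour to neighbour, as did those of the day 5 pair, and both day 5 libraries were above the earlier ones. D5 away was 4.23-fold [2.66, 7.03] and D5 around 4.93-fold [3.11, 8.17] above D4 evening, at levels of 1.77 and 2.06 RPKM. Il11ra1 (chromosome 4, 41760443 to 41769473, protein-coding) was the flattest of the 10 genes, with 235, 260, 209, 295 and 340 counts in the same order of libraries. D4 evening and D5 around, which had its lowest and highest CPM, differed by 1.51-fold [1.27, 1.80], and none of its 5 differences passed 2-fold. Its count is uncertain, since reads shared with the near-identical copy Il11ra2, at 0 counts in each library, may have been dropped or assigned to either, and its exons overlap Ccl27a on the opposite strand, which had between 6 and 22 counts.

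The kinase gene Jak2 was far lower on day 5 than before, while Jak1 differed little after D4 evening. Jak2 (chromosome 19, 29251828 to 29313080, protein-coding) had a CPM of 385 in D3 morning, 743 in D4 morning, 508 in D4 evening, 146 in D5 away and 69.2 in D5 around. Both day 5 libraries were the lowest, with D5 away 3.48-fold [3.33, 3.64] and D5 around 7.34-fold [6.90, 7.81] below D4 evening. D5 around was 2.11-fold [1.97, 2.26] below D5 away. Jak1 (chromosome 4, 101151974 to 101265282, protein-coding) had 118, 171, 292, 243 and 327 CPM in the same order, and none of its 5 differences passed 2-fold. Its exons overlap Raver2 on the opposite strand, which had between 4 and 65 counts. In RPKM, Jak2 exceeded Jak1 by 4.57-fold [4.39, 4.76] in D4 morning and by 1.83-fold [1.77, 1.90] in D4 evening. On day 5 the order was turned, and Jak1 exceeded Jak2 by 1.58-fold [1.504, 1.65] in D5 away and 4.49-fold [4.21, 4.78] in D5 around.

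Stat3 and Socs3 were both highest around the embryo but followed different courses. Stat3 (chromosome 11, 100886810 to 100939511, protein-coding) had a CPM of 92.8 in D3 morning, 226 in D4 morning, 274 in D4 evening, 356 in D5 away and 519.9 in D5 around, so that each library was above those of all earlier times. D4 morning was 2.44-fold [2.30, 2.58] above D3 morning, the only 1 of its 5 differences past 2-fold. With library totals this log2 difference was 0.95 and no longer passed. D5 around was 1.46-fold [1.42, 1.51] above D5 away.

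Socs3 (chromosome 11, 117966087 to 117969366, protein-coding) had a CPM of 3.28 in D3 morning, 9.74 in D4 morning, 90.5 in D4 evening, 23.0 in D5 away and 163 in D5 around. It was 2.97-fold [2.19, 4.07] higher in D4 morning than in D3 morning and a further 9.29-fold [7.93, 10.9] higher that evening. On day 5 the sites parted, with D5 away 3.93-fold [3.53, 4.39] below and D5 around 1.80-fold [1.69, 1.92] above D4 evening. Between the sites it was 7.08-fold [6.39, 7.85] higher in D5 around. That library had the highest trophectoderm, smooth muscle, endothelial and gland sums. Its stromal sum was the lowest, with single stromal, gland, endothelial and trophectoderm markers going both ways. The part of these cell types in the Socs3 difference was not tested. Set against its activator gene, the RPKM of Socs3 divided by that of Stat3 was 0.0709 [0.0606, 0.0826] in D4 morning, 0.545 [0.513, 0.578] in D4 evening, 0.107 [0.0965, 0.117] in D5 away and 0.516 [0.494, 0.539] in D5 around. The ratio was thus several times higher in D4 evening and D5 around than in the other libraries.

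**Figure D3:**
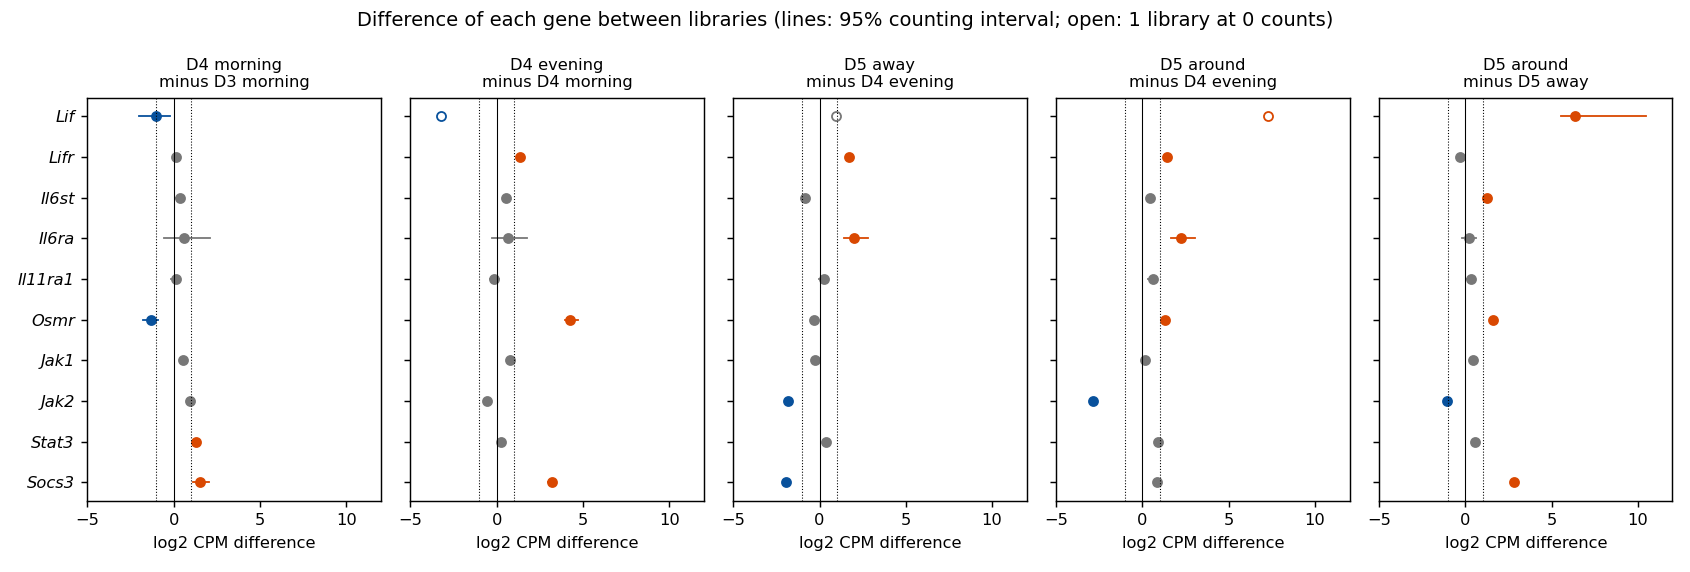
Difference in log2 CPM (horizontal axis) of each of the 10 genes for the 5 pairs of libraries; orange points are past 2-fold higher, blue points past 2-fold lower, grey points neither, and lines give the 95% counting interval. Open points mark Lif where 1 library had 0 counts, for which the value depends on the prior count; Osmr (4.28) and Socs3 (3.20) lie farthest to the right from D4 morning to D4 evening, and Jak2 (-2.87) farthest to the left in D5 around against D4 evening.

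Of the 10 genes, Osmr and Socs3 had the largest excess in D4 evening over D4 morning, so their promoters are shown from RefSeq (GRCm38.p6), from 250 bases before to 50 after the start of the gene. Capitals mark the Stat-type motif TTCNNNGAA, which reads alike on both strands. The Socs3 window is chr11:117969317-117969616 and the Osmr window chr15:6874264-6874563, both on the minus strand.
Socs3: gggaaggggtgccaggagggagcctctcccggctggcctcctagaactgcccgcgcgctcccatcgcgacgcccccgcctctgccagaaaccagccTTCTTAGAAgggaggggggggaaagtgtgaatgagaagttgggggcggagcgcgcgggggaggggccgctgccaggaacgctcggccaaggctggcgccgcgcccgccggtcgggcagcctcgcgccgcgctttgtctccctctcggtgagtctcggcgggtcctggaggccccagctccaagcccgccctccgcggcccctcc
Osmr: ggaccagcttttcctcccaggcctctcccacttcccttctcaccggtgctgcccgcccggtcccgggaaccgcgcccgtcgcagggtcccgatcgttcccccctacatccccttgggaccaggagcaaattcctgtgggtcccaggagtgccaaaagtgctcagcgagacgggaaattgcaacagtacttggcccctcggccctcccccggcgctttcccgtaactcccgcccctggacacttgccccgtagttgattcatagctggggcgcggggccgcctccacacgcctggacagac
The single match in Socs3 is TTCTTAGAA, whose first base lies 154 bases before the start. RefSeq promoters were found for 10 of the 10 genes, as 12 windows, and Socs3 was the only gene with a match, so that the Osmr window has none. Of all 32851 promoter windows 8.30% hold at least 1 match, and of all 27025 genes 9.55% do. The narrower form TTCCNGGAA, part of the same motif, was in none of the 12 windows and in 1.15% of all.

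Counted over the 10 genes, each pair of libraries had 4 or 5 past the limit. In D4 morning against D3 morning, Stat3 and Socs3 were higher and Lif and Osmr lower, where 7.93% of the 12918 genes were higher, 11.0% lower and 18.9% either. In D4 evening against D4 morning, Lifr, Osmr and Socs3 were higher, beside 6.99% of all genes, and Lif was lower, beside 6.96%, or 13.9% either way. In D5 away, Lifr and Il6ra were above D4 evening, beside 12.7%, and Jak2 and Socs3 below it, beside 12.8%, or 25.5% either way. In D5 around, Lif, Lifr, Il6ra and Osmr were above D4 evening, beside 19.3%, and Jak2 below it, beside 20.4%, or 39.6% either way. Between the day 5 sites, Lif, Il6st, Osmr and Socs3 were higher in D5 around, beside 13.6%, and Jak2 lower, beside 14.5%, or 28.1% either way. The median log2 difference of the 10 genes was 0.45, 0.62, -0.27 (9 genes, without Lif at 0 and 2 counts), 0.89 and 0.49 in this order, beside medians of all genes between -0.03 and 0.04. These pairs share libraries with each other. Lif, counted as higher in D5 around in both pairs where it is named so, passed the filter only through that library. Il6ra passed it through the day 5 libraries, where it was counted as higher. Across the 5 libraries, the highest log2 CPM exceeded the lowest by a median of 3.32 over the 10 genes and 1.36 over all 12918. The 10 genes were chosen with earlier results of these data known, and the part of that choice in these values was not tested.

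Other ligands of the family were followed as a list of 8 genes, of which 5 averaged at least 1 CPM. Il11, which encodes the interleukin needed for decidualization of the stroma, had 3 in D3 morning, 8 in D4 morning, 1 in D4 evening, 15 in D5 away and 10358 in D5 around, all in counts. It was 763-fold [462, 1364] higher in D5 around than in D5 away, and its RPKM of 314 there was 70.8-fold [63.2, 79.6] that of Lif. In this same library the trophectoderm, smooth muscle, endothelial and gland sums given above were highest. The stromal sum was lowest, with single stromal, gland, endothelial and trophectoderm markers going both ways. The part of these cell types in the Il11 counts was not tested. Il6 was lower on day 5 than before, with 657, 238, 267, 0 and 39 counts, and D5 away was at least 106-fold below D4 evening. Ctf1, which encodes cardiotrophin 1, another ligand of gp130 and Lifr, had 156 RPKM in D4 morning, the highest level of these ligands in the 3 libraries before attachment. Ctf1 was 8.46-fold [7.40, 9.70] below D4 evening in D5 away and 19.3-fold [15.7, 23.9] below it in D5 around. Clcf1, a ligand of the ciliary neurotrophic factor receptor complex, was 4.76-fold [4.08, 5.58] above D4 evening in D5 away and 4.44-fold [3.79, 5.21] in D5 around, with an interval between the sites that included equality. Ebi3 passed 2-fold in none of the 5 pairs. Osm, the ligand of Osmr, had between 0 and 5 counts, and Cntf between 0 and 4. Il27 had 22 counts in D5 around and at most 1 elsewhere.

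**Figure D4:**
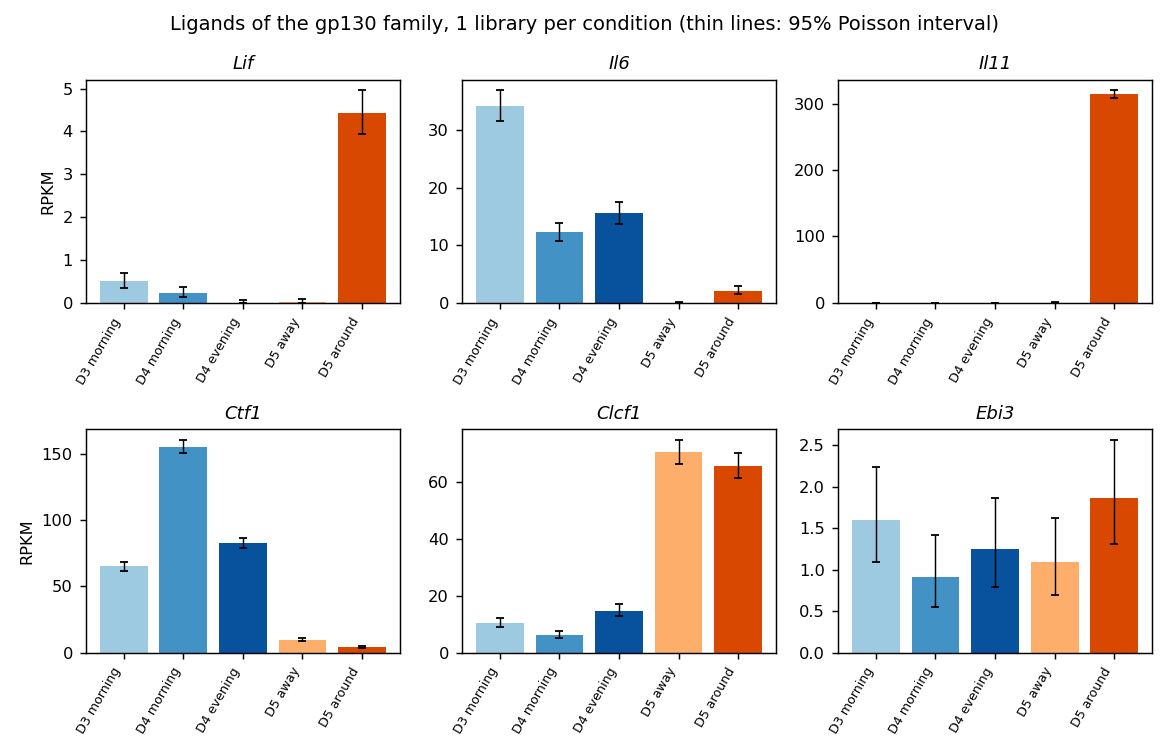
RPKM of Lif and of the 5 other ligand genes that passed the filter (vertical axes from 0, a scale of its own per gene) in the 5 libraries, with thin lines for the exact 95% Poisson interval. Lif and Il11 peak in D5 around (4.43 and 314 RPKM), Il6 in D3 morning (34.2), Ctf1 in D4 morning (156) and Clcf1 on day 5.

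Among 6 further receptor genes of the family and its relatives, Crlf2 alone averaged at least 1 CPM, and it was 2.38-fold [1.71, 3.36] higher in D5 around than in D4 evening, at 131 and 51 counts. It encodes a chain of the receptor for thymic stromal lymphopoietin. Of 8 other Jak and Stat genes 7 averaged at least 1 CPM. Stat2, the gene of an interferon-responsive factor, was lowest in D5 around, 3.33-fold [2.93, 3.78] below D4 evening. Stat5a, which transmits signals of prolactin and growth hormone, had 363, 348, 148, 89 and 804 counts and was 9.98-fold [8.01, 12.6] higher in D5 around than in D5 away. Stat6, with the highest mean RPKM of the list, passed 2-fold in none of the 5 pairs.

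Of 15 other inhibitors of the pathway 14 averaged at least 1 CPM. In D4 evening against D4 morning none of these 14 was past 2-fold in either direction, beside 13.9% of all genes. Between the day 5 sites 5 of the 14 were higher in D5 around and 0 lower, beside 13.6% and 14.5% of all genes. Socs2, a feedback inhibitor of growth hormone and Stat5 signalling, had 1272, 1241, 1136, 3066 and 14766 counts and the highest mean RPKM of this list, and was 5.32-fold [5.12, 5.54] higher in D5 around than in D5 away. Cish, another inhibitor induced by Stat5, was 7.37-fold [6.09, 8.99] below D4 evening in D5 away and 1.73-fold [1.54, 1.95] below it in D5 around. Socs5 was 3.82-fold [3.51, 4.16] higher in D5 around than in D5 away.

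Genes known from textbooks as targets of Stat3 were followed as a list of 28, of which 25 averaged at least 1 CPM. The list was chosen with earlier results of these data known, and the part of that choice in the counts below was not tested. In D4 evening 11 of the 25 were above D4 morning and 3 below it, beside 6.99% and 6.96% of all genes, with a median log2 difference of 0.97 beside -0.01 over all genes. In D4 morning 3 were above D3 morning and 6 below it, beside 7.93% and 11.0% (median -0.00 over 23 genes with more than 3 counts). In D5 away 10 were above D4 evening and 3 below it, beside 12.7% and 12.8% (median 0.40). In D5 around 17 were above D4 evening and 0 below, beside 19.3% and 20.4% (median 1.82). Against D5 away 14 were higher and 1 lower, beside 13.6% and 14.5% (median 1.55). The trophectoderm and smooth muscle sums were also highest in D5 around, at 153 and 397 CPM against at most 34.1 and 31.4 CPM elsewhere, and their part in these counts was not tested. The fibrinogen genes Fga and Fgg, which encode acute phase proteins, were at 0 counts in D3 morning and D4 morning, and Fgb, the other fibrinogen gene of the list, was at 0 counts in all 5 libraries. Fga then had 9 counts in D4 evening, 490 in D5 away and 3621 in D5 around, and Fgg had 12, 925 and 4571. Il1rn, which encodes the interleukin 1 receptor antagonist, had 70, 20, 1, 26 and 466 counts, and was 19.8-fold [13.3, 30.6] higher in D5 around than in D5 away. Cebpb, a transcription factor gene of the acute phase response, had the highest mean RPKM of the list, with an RPKM of 94.4 in D3 morning, 84.7 in D4 morning, 168 in D4 evening, 363 in D5 away and 691 in D5 around. Ccnd1, the cyclin D1 gene, was the exception between the day 5 sites, with 641 counts in D5 away and 191 in D5 around. It is named because it alone of the 25 was past 2-fold lower in D5 around. This choice was made after its values were seen. Myc was also lower in D5 around than in D5 away, at 1095 against 2209 counts, within the limit.

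**Figure D5:**
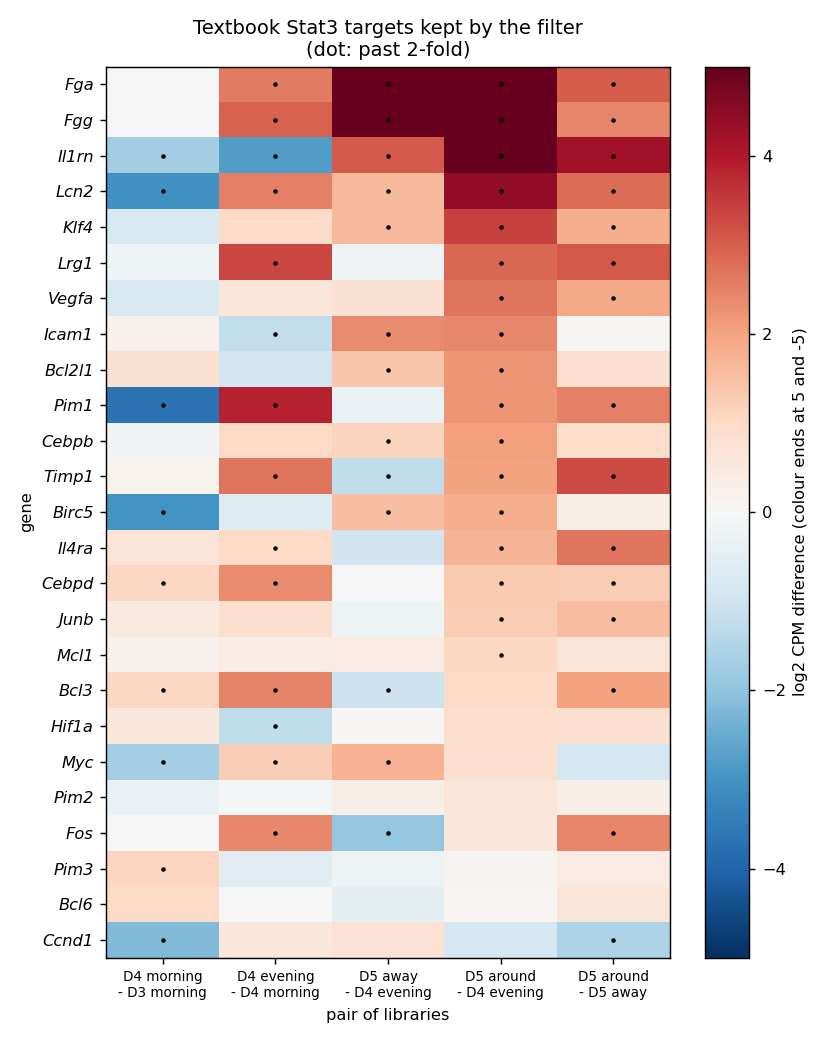
Difference in log2 CPM (colour, ending at 5 and -5) of the 25 textbook Stat3 targets that passed the filter (rows) for the 5 pairs of libraries (columns), with a dot where the difference is past 2-fold. In D5 around against D4 evening 17 of the 25 carry a dot, all higher; Fga and Fgg are pale in the first column because both libraries had 0 counts.

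The course of Lif, Lifr, Il6st, Socs3 and Stat3 was compared with those of the 8868 other genes averaging 10 CPM or more, by the root mean square difference of log2 CPM after each gene was centred on its mean over the 5 libraries. The genes closest to Socs3 were Bcl3 (0.47), which encodes a modulator of NF-kappa B and is also in the list of Stat3 targets, Cxcl5 (0.50) and Coch (0.62). Bcl3 had 106, 221, 1098, 617 and 2276 counts, higher in D4 evening than in the morning and lower in D5 away than in D5 around. That it shares this course with Socs3 follows from its choice as the closest gene. Closest to Stat3 were Tnip1 (0.08), Appl2 (0.10) and Arid5b (0.15), and closest to Lifr were Foxo1 (0.10), Nek6 (0.18) and Myo1d (0.18). Chmp1b (0.08), Slc25a28 (0.10) and Tle3 (0.12) lay closest to Il6st. For Lif the nearest genes, Slc7a11 (0.84), Cryab (0.92) and Degs2 (0.94), were farther away. These likenesses rest on 5 libraries and describe them only.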

How the data were processed

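Laser-microdissected luminal layers of wild-type uteri were sequenced after SMART-seq v.4 amplification. The authors deposited raw counts per gene, made with HISAT2 on GRCm38/mm10 and featureCounts of Subread 2.0.0 together with a gene length in bases, used for RPKM. The annotation, the strand setting and the handling of reads with several alignments were not given in the sources used here; this kit does not mark strand.

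Counts were scaled by TMM in edgeR 4.0.16 (R 4.3.3) on genes whose CPM averaged 1 or more. Python 3.11.15, pandas 2.3.3, numpy 2.4.6, scipy 1.17.1 and matplotlib 3.10.9 gave log2 CPM (prior count 2), RPKM, Clopper-Pearson intervals of count ratios and Poisson intervals. With 1 library per group, a call is a difference past 2-fold with more than 3 counts in at least 1 library. The count condition was added after the files were seen. Alternatives were DESeq2 1.42.0 size factors, library totals, with or without Rn45s and Lars2, a prior count of 0.5, limits of 1.5-fold and 4-fold, no filter, a filter at 5 CPM, and the edgeR exact test at a fixed dispersion of 0.1 (false discovery rate under 0.05 and 2-fold), which compares libraries and not conditions. Calls and intervals were tried on simulated counts with Poisson error alone, which cannot show how they behave with variation between animals.

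The 10 genes and all lists were chosen with earlier results of these data known. Named beyond them were, per list, the 3 genes with the largest absolute log2 difference and the gene with the highest mean RPKM, and the 3 genes closest in course to Lif, Lifr, Il6st, Socs3 and Stat3. A few others, such as Osm and Ccnd1, were named after their values were seen. Of the listed genes 4 are not in the table under those names (Hras, Cxcl15, Spink1 and Adgre1). A gene that this rule names is not reported here. No p-value is given.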

Additional observations from a re-analysis of the deposited data

Results flagged for a closer look

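Some of the 10 genes stood on opposite sides of their D4 evening level at the day 5 sites, with counting intervals that excluded equality at both. Socs3 had a log2 CPM difference from D4 evening of -1.97 in D5 away and 0.85 in D5 around. Osmr had -0.29 and 1.32, Il6st -0.84 and 0.43, and Jak1 -0.27 and 0.17 in the same order. With library totals Osmr had -0.05 and 1.22 and Jak1 -0.03 and 0.07. Without Rn45s and Lars2 in the totals, Osmr had -0.15 and 1.15, and Jak1 in D5 around was no longer above D4 evening (-0.0013). The opposite sides of Jak1 thus depend on the scaling. Osmr kept its opposite signs, although its D5 away level came close to that of D4 evening with library totals. Both differences share the D4 evening library, each site is 1 library, and the difference between the sites was not tested.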

How the results depend on the processing

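The direction of each called difference of a gene was the same under each scaling, prior count and filter in which it could be given. Of the single differences, 49 of 49 stayed within their counting interval with DESeq2 size factors, with a prior count of 0.5 and with no filter. With library totals 21 of 49 did. Where 1 library had 0 counts, the interval of Lif had no bound on 1 side. With a prior count of 0.5, its log2 difference in D5 around against D4 evening went from 7.29 to 9.29. In D4 evening against D4 morning it went from -3.21 to -5.09. Calls over the 10 genes depended most on the rule. The edgeR exact test, with its dispersion set to 0.1, called 0 genes in D4 morning against D3 morning, 2 in D4 evening against D4 morning (Osmr and Socs3), 1 in D5 away (Socs3), 3 in D5 around (Lif, Il6ra and Jak2) and 2 between the day 5 sites (Lif and Socs3). At 4-fold there were 0 in D4 morning against D3 morning, 0 in D5 away, 3 in D5 around and 2 between the sites. At 1.5-fold there were 8 in D5 around. With a mean of at least 5 CPM, which leaves out Lif and Il6ra, there were 3 in D5 around. Over all genes, that test called 98 higher and 378 lower in D4 morning against D3 morning, and 1308 higher and 1219 lower in D5 around.

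Library totals moved the median log2 difference of all genes to between -0.36 (between the day 5 sites) and 0.23 (D5 away against D4 evening). The share of higher genes among those past 2-fold then went from 42.0% to 19.6% in D4 morning against D3 morning, from 49.8% to 64.0% in D5 away and from 48.6% to 31.5% between the sites. Without Rn45s and Lars2 it was 28.8%, 58.7% and 32.7%. Stat3 in D4 morning against D3 morning was no longer past 2-fold with library totals, nor was Il6st between the sites with either kind of total. No paired analysis was possible because each condition has 1 library, and no library could be left out. Depth limits Lif and Il6ra, whose counts before attachment were at most 36 and 22.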

Other observations

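The branch from gp130 to Ras and the Map kinases, which runs beside Stat3, was followed as a list of 10 genes, 9 of them averaging at least 1 CPM. In D4 morning against D3 morning and in D4 evening against D4 morning none of the 9 was past 2-fold, beside 18.9% and 13.9% of all genes. In D5 away 2 were above D4 evening and 0 below, beside 12.7% and 12.8% of all genes. In D5 around 3 were above and 0 below, beside 19.3% and 20.4%, so that the counts above are near the background. Gab2, an adaptor protein gene, had 76 counts in D4 evening, 323 in D5 away and 348 in D5 around. Map2k1, which encodes the kinase Mek1 and had the highest mean RPKM of the list, had 1405, 2112 and 4338 counts in the same libraries. Shc1, another adaptor gene, had 1178, 1934 and 2798 counts.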
